A study of Danio rerio with 4 samples.

Results

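The Hox cluster genes were followed in hearts and surrounding tissue from zebrafish embryos kept in SU5402, an inhibitor of fibroblast growth factor (FGF) receptors. Members were the genes whose current symbol begins with hoxa, hoxb, hoxc or hoxd and a number, each read from its brightest probe set, the set of short oligonucleotides that measures 1 transcript on an Affymetrix Zebrafish array. This gave 42 genes from 59 probe sets, out of 8793 genes with a single symbol and 15502 probe sets in all. The treated group was wild-type embryos kept in 10 μM SU5402, an inhibitor of the tyrosine kinase of FGF receptors, diluted from a 1 mM stock in DMSO. The control group was wild-type siblings kept in 1% DMSO, the solvent. Hearts with surrounding tissue were collected by syringe at 48 hours post fertilization, and each group had 2 replicates on 1 array each. The labels give neither the length of treatment nor the number of embryos behind an array, and do not say whether replicates came from separate clutches. The p-values therefore reflect the spread between these 4 arrays alone, and that spread may be technical.

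Hox genes encode transcription factors that bind DNA through a homeodomain and give cells an identity according to their place along the body. They lie side by side in clusters, and the members of a cluster are numbered as paralog groups 1 to 13. Low numbers are generally used in the hindbrain, pharyngeal arches and anterior trunk, high numbers in the posterior body and, in the hoxa and hoxd clusters, along the growing fin or limb bud. Teleost fish carry duplicated clusters, marked by a final a or b in each gene name, so that hoxa10b is the group 10 gene of the hoxab cluster. Both retinoic acid and FGF signalling are known to act on Hox expression in the vertebrate trunk and hindbrain.

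The 42 genes covered 7 clusters. Of 49 Hox genes coding for protein in the RefSeq table, 7 had no probe set used here, namely hoxa13a, hoxb1b, hoxb13a, hoxc10a, hoxc12a, hoxc13b and hoxd12a. Levels are given as log2(intensity + 16), and each difference is SU5402 minus DMSO on that scale, which understates differences of dim genes. Background was read from 17 Tag control probe sets, for which zebrafish RNA holds no target, and their 95th percentile, 7.25 on this scale, is called the Tag level. Most Hox genes were dim. On average 28 of 42 lay below the Tag level in both groups, 7 lay below it in SU5402 arrays alone and 7 lay above it in both groups. Only 21 of the 42 exceeded it on any array. Over all probe sets the SU5402 arrays correlated at r = 0.928 and the DMSO arrays at 0.964, with 0.908 to 0.94 between arrays of different groups (probe sets are not independent replicates). The heart muscle genes myl7 and myh7 were bright on all 4 arrays, and so were neuronal and fin genes in one or both groups, so the labelled tissue held heart together with other cells. In such tissue, fewer cells of a type and less RNA per cell cannot be told apart.

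The comparison asked which transcripts of the heart region differ when embryos are kept in SU5402. How far FGF signalling fell was not examined here. Hox genes of paralog groups 9 to 13 had mostly negative differences after SU5402, while those of groups 1 to 8 had no common direction, and no single gene passed the adjusted test. Of 17 genes in groups 9 to 13, 15 had a negative difference (56.2% of all genes did) and the median was -1.10. The 13 genes of groups 1 to 4 had a median of -0.05 and the 12 genes of groups 5 to 8 a median of 0.20, against -0.08 over all 8793 genes. On average 8 of those 13 and 9 of those 12 lay below the Tag level in both groups. In groups 9 to 13 the same held for 11 of 17, and 5 more lay below it in SU5402 arrays alone. In all of these ranges the directions of such dim genes say little. With values raised to the Tag level, the median of groups 9 to 13 was 0. The lowest single values were those of hoxc8a at -3.27 (SE 0.61) and hoxb8a at -2.40 (SE 0.42), both in group 8. Each SE and p comes from the limma fit, which draws a gene's variance toward that of all probe sets. An SE can thus differ from a gene's own spread. For hoxd9a the SD was 0.02 in SU5402 and 0.05 in DMSO arrays, beside an SE of 0.30.

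None of the 42 passed limma at a Benjamini-Hochberg adjusted p under 0.05 over all probe sets (lowest adjusted p = 0.255), as was so for every probe set of the array (0.0% called). At an unadjusted limma p under 0.05, 10 of 42 Hox genes (23.8%) were lower, against 8.04% of all genes, and 1 was higher, against 5.31%. The 10 were hoxa2b, hoxa10b, hoxa13b, hoxb8a, hoxb9a, hoxc8a, hoxc11a, hoxc13a, hoxd9a and hoxd11a, and the 1 was hoxc4a. Both SU5402 arrays lay below both DMSO arrays with at least a 2-fold difference for 13 of 42 (31%), against 6.31% of all genes. The same separation upward held for 1 of 42, against 4.42% of all genes. With 2 arrays against 2, an exact permutation test cannot give a p below 0.333.

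**Figure D1:**
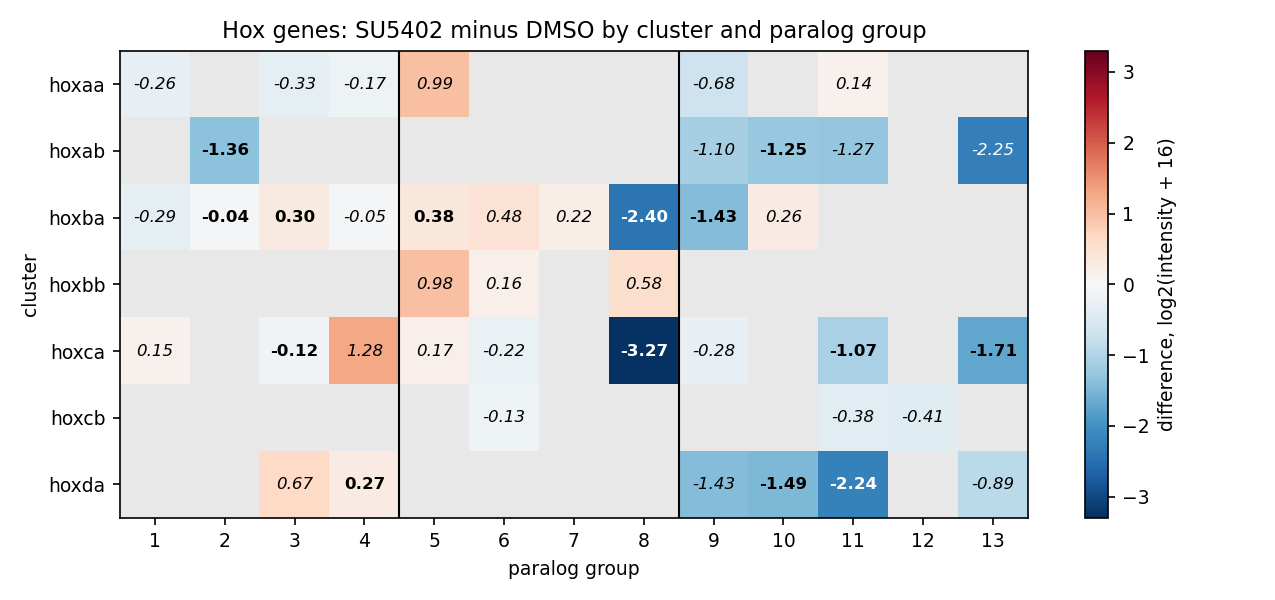
Difference between SU5402 and DMSO arrays, in log2(intensity + 16), for each of 42 Hox genes, by cluster (rows) and paralog group (columns); grey cells have no gene measured, bold values belong to genes above the Tag level in at least 1 group and italic values to genes below it in both, and vertical lines part groups 1 to 4, 5 to 8 and 9 to 13. Blue cells, lower after SU5402, fill most of the columns of groups 9 to 13 and reach -3.27 at hoxc8a and -2.40 at hoxb8a in group 8.

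In groups 9 to 13, 7 of 17 genes were lower at an unadjusted limma p under 0.05 (8.04% of all genes) and 0 were higher (5.31% of all genes). For 11 of 17 both SU5402 arrays lay below both DMSO arrays (26.3% of all genes), 10 of them by at least 2-fold (6.31% of all genes). No gene of these groups had both SU5402 arrays above both DMSO arrays (19.3% of all genes). The count of 7 was 4 without SU5402 replicate 1 and 4 without DMSO replicate 2, and the median ran from -1.39 without DMSO replicate 1 to -0.73 without SU5402 replicate 1. Of the 17 genes, 11 lay below the Tag level in both groups on average and 5 in SU5402 arrays alone.

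**Figure D2:**
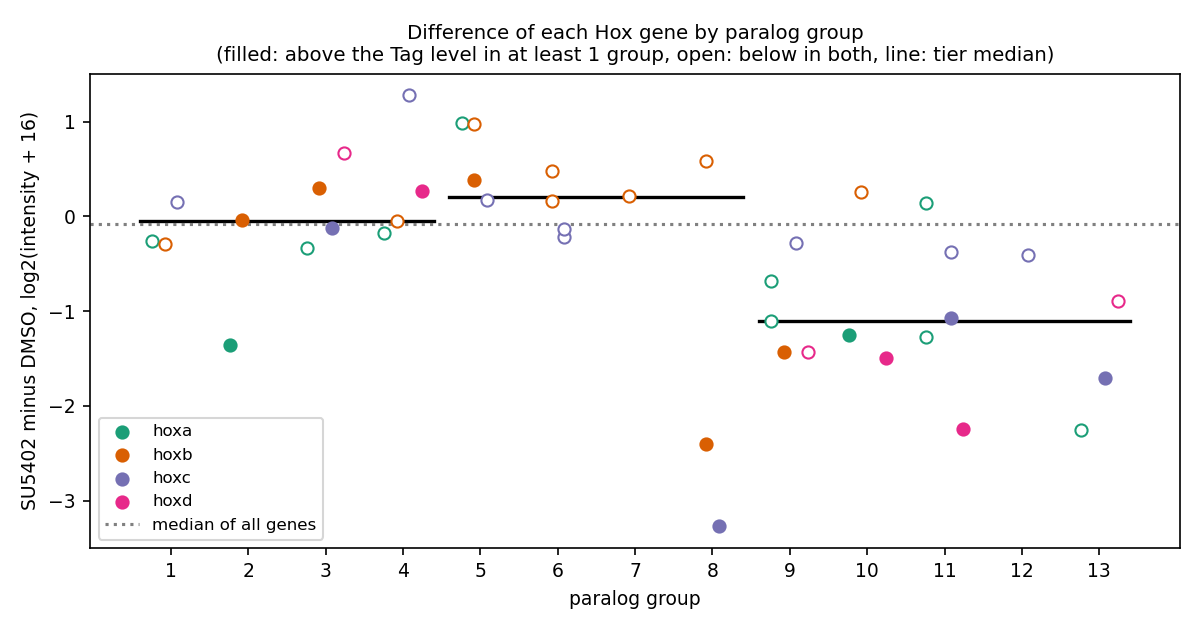
Difference between SU5402 and DMSO arrays in log2(intensity + 16) for each Hox gene (points, coloured by cluster letter) by paralog group; filled points lie above the Tag level in at least 1 group and open points below it in both, black lines are the medians of groups 1 to 4 (-0.05), 5 to 8 (0.20) and 9 to 13 (-1.10), and the dotted line is the median of all genes (-0.08). Points of groups 9 to 13 lie mostly below 0, and those of groups 1 to 7 on both sides of it.

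The 5' genes of the hoxda cluster, whose tetrapod counterparts pattern the limb from its base to the digits, all had negative differences. The gene hoxd11a was at 5.09 and 6.82 in SU5402 replicates 1 and 2, against 7.15 and 9.24 in DMSO replicates 1 and 2. The groups did not overlap, but the lower DMSO array stood only a little above the higher SU5402 array. The means were 5.95 ± 1.22 in SU5402 and 8.19 ± 1.47 in DMSO arrays (SD, n = 2 each), a difference of -2.24 (SE 0.84, limma adjusted p = 0.358). Because both SU5402 values were below the Tag level, the fold is a bound, and hoxd11a was at least 1.93-fold lower than in DMSO arrays. DMSO replicate 1 also lay below that level, so the bound rests on DMSO replicate 2, the one array above it. Its neighbour hoxd10a was at 5.66 and 7.59 in SU5402 arrays, against 7.89 and 8.35 in DMSO arrays, a difference of -1.49 (SE 0.65, limma adjusted p = 0.415). In both genes SU5402 replicate 1 was the lowest of the 4 arrays. Without it hoxd10a was at -0.52 and hoxd11a at -1.38, and with SU5402 replicate 2 left out they were at -2.46 and -3.10. Without DMSO replicate 1, hoxd11a was at -3.28, and without DMSO replicate 2 at -1.20.

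The remaining hoxda genes of this range were dimmer. The gene hoxd9a was at 4.27 and 4.30 in SU5402 arrays, against 5.75 and 5.67 in DMSO arrays, a difference of -1.43 (SE 0.30, limma adjusted p = 0.255). Its arrays agreed closely within each group, yet all 4 lay below the Tag level, so no fold is given. The gene hoxd13a overlapped between groups, at 4.84 and 6.08 in SU5402 arrays and 5.45 and 7.25 in DMSO arrays, and its difference of -0.89 became 0.02 without DMSO replicate 2. At the other end of the same cluster, hoxd3a and hoxd4a differed by 0.67 and 0.27. The genes hoxd9a, hoxa13b, hoxa11b, hoxa9b, hoxd13a, hoxc4a, hoxb5b and hoxa5a are described although they lay below the Tag level in both groups on average. They were singled out after their values were seen. Differences are also given for hoxd3a, hoxb8b, hoxb10a, hoxa9a, hoxa11a, hoxc9a, hoxc11b and hoxc12b. These genes too lay below the Tag level in both groups on average, so their directions say little.

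All 5 measured genes of the hoxab cluster had negative differences. In all 5 the groups did not overlap and differed by at least 2-fold (6.31% of all genes). Of the 7 clusters only hoxab had every gene lower by this count, and in its duplicate hoxaa 0 of 6 were. Both group means were under the Tag level for all 6 hoxaa genes and for 3 of these 5. Among the 5, hoxa9b stayed under it on every array, while hoxa10b, hoxa11b and hoxa13b passed it in DMSO replicate 2 alone. Much of this count thus rests on background readings and that array, and no effect on the whole cluster is read from it. The 5' genes of hoxab are counterparts of the tetrapod hoxa genes that act in the limb bud. The gene hoxa10b was at 6.49 and 6.37 in SU5402 arrays, against 7.18 and 8.19 in DMSO arrays, a difference of -1.25 (SE 0.42, limma adjusted p = 0.318) and at least 1.35-fold lower. It was at -0.75 without DMSO replicate 2, the one array on which it exceeded the Tag level. The gene hoxa13b, whose group 13 counterparts act in the most distal part of limbs, was at 5.15 and 4.60 in SU5402 arrays, against 6.74 and 7.52 in DMSO arrays, a difference of -2.25 (SE 0.41, limma adjusted p = 0.255). It exceeded the Tag level only in DMSO replicate 2. For hoxa11b and hoxa9b the differences were -1.27 (SE 0.66) and -1.10 (SE 0.54), and without DMSO replicate 2 they shrank to -0.27 and -0.34. In DMSO replicate 2 these 4 genes had their highest values, so the size of the difference in hoxa9b, hoxa10b and hoxa11b leaned on that array.

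The fifth gene of the cluster, hoxa2b, stands at its other end. It is known in zebrafish as a selector of the identity of the second pharyngeal arch. It was at 6.67 and 6.32 in SU5402 arrays, against 8.38 and 7.34 in DMSO arrays, a difference of -1.36 (SE 0.44, limma adjusted p = 0.305) and at least 1.53-fold lower. Here DMSO replicate 1 was the highest array, in contrast to the 5' genes of the cluster, and without it the difference was -0.84.

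**Figure D3:**
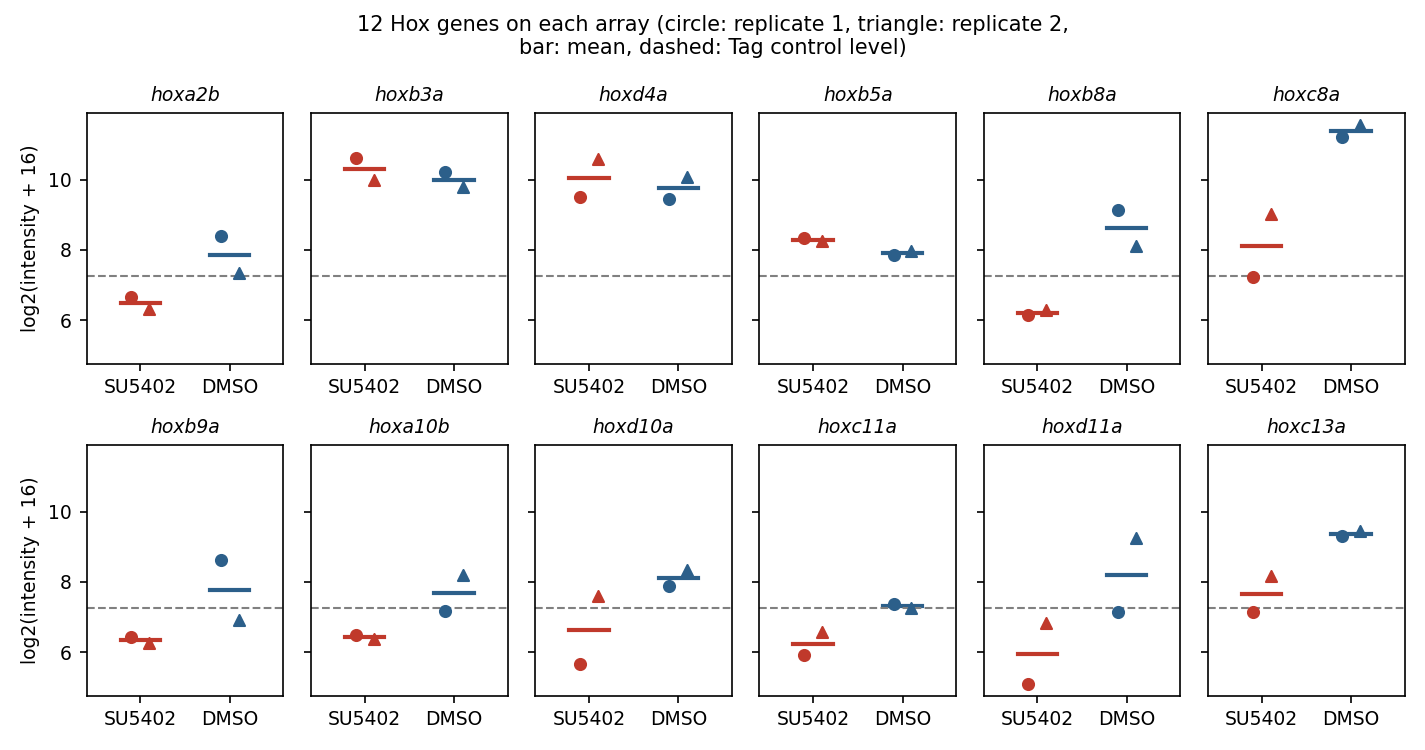
Level in log2(intensity + 16) of 12 Hox genes in the SU5402 (red, left) and DMSO (blue, right) arrays, ordered by paralog group; circles are replicate 1, triangles replicate 2, bars the mean of 2 arrays, and the dashed line the Tag level at 7.25. The groups overlap in hoxb3a and hoxd4a, SU5402 arrays lie above DMSO arrays in hoxb5a, and in the other 9 genes both SU5402 arrays lie below both DMSO arrays. Those 9 were chosen by an unadjusted limma p under 0.05 or by separation of at least 2-fold, so their separation follows from the choice. On average 7 of them lay above the Tag level in DMSO arrays alone. The genes hoxb3a, hoxb5a and hoxd4a were added as the brightest others.

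In the hoxca cluster, hoxc13a and hoxc11a had negative differences with groups that did not overlap. The gene hoxc13a was at 7.15 and 8.16 in SU5402 arrays, against 9.30 and 9.44 in DMSO arrays, a difference of -1.71 (SE 0.42, limma adjusted p = 0.256). It was the only gene of groups 9 to 13 whose mean exceeded the Tag level in both groups, and it was 3.28-fold lower. SU5402 replicate 1 lay just below that level, so this fold includes 1 background reading. Its difference was -1.21 without SU5402 replicate 1 and, without the other SU5402 array, -2.22. The gene hoxc11a was at 5.91 and 6.58 in SU5402 arrays, against 7.36 and 7.26 in DMSO arrays, a difference of -1.07 (SE 0.35, limma adjusted p = 0.316). The DMSO arrays stood at the Tag level itself, so the bound is only 1.04-fold. The gene hoxc9a was at -0.28 (SE 0.31), and the hoxcb genes hoxc11b and hoxc12b were at -0.38 and -0.41 with overlapping groups.

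Of the hoxba cluster, hoxb9a was at 6.44 and 6.26 in SU5402 arrays, against 8.63 and 6.93 in DMSO arrays, a difference of -1.43 (SE 0.58, limma adjusted p = 0.385) and at least 1.45-fold lower. Only DMSO replicate 1 was above the Tag level, and without it the difference was -0.58, against -2.28 without DMSO replicate 2. The next gene, hoxb10a, had a positive difference of 0.26 (SE 0.34) with overlapping groups, and hoxa11a, at 0.14, was the other positive value in groups 9 to 13. Both genes lay below the Tag level in both groups on average. In the hoxaa cluster hoxa9a was at -0.68 (SE 0.53) with overlapping groups, from -1.28 without SU5402 replicate 2 to -0.09 without SU5402 replicate 1.

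In groups 5 to 8, the large negative differences were those of hoxc8a and hoxb8a, 2 of the 3 group 8 genes. The gene hoxc8a, whose mouse counterpart acts in motor neurons of the brachial spinal cord, had linear intensities of 133.2 and 503.1 in SU5402 arrays, against 2355.8 and 3007.1 in DMSO arrays. On the log2 scale these were 7.22 and 9.02 in SU5402, against 11.21 and 11.56 in DMSO arrays. The groups were far apart, and SU5402 replicate 1 was much the lowest array, just below the Tag level. The difference of -3.27 (SE 0.61, limma adjusted p = 0.255) was 9.62-fold, and ran from -4.17 without SU5402 replicate 2 to -2.37 without SU5402 replicate 1. It was seen in 1 of 3 probe sets, and the others, below the Tag level on all 4 arrays, were at 0.42 and 0.51. The endings of probe set names, which may mark probe orientation and differ among these 3, are not explained in the sources used here. The gene hoxb8a, a group 8 gene of the trunk, was at 6.14 and 6.28 in SU5402 arrays, against 9.12 and 8.10 in DMSO arrays. Its difference of -2.40 (SE 0.42, limma adjusted p = 0.255) was at least 2.58-fold, since both SU5402 arrays lay below the Tag level. The other group 8 gene, hoxb8b, was at 0.58 (SE 0.34) and lay below the Tag level in both groups on average.

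The 9 genes of groups 5 to 7 had differences between -0.22 and 0.99. At an unadjusted limma p under 0.05, 0 of them were lower (8.04% of all genes) and 0 higher (5.31% of all genes). Among the 9, only hoxb5a lay above the Tag level in either group on average. All 4 group 5 genes were positive (43.8% of all genes were). The gene hoxb5a was at 8.33 and 8.25 in SU5402 arrays, against 7.86 and 7.96 in DMSO arrays, a difference of 0.38 (SE 0.30, limma adjusted p = 0.658). Its arrays lay above the Tag level throughout and did not overlap between groups, and leaving out any array kept the difference between 0.34 and 0.43. The gene hoxb5b, known in zebrafish to act downstream of retinoic acid in restricting the number of atrial cells, was at 6.09 and 6.0 in SU5402 arrays, against 5.73 and 4.41 in DMSO arrays. All 4 values were below the Tag level, and the difference of 0.98 (SE 0.49) was 0.32 without DMSO replicate 2. The difference of hoxa5a, 0.99 (SE 0.51), was 0.27 without SU5402 replicate 1.

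Groups 1 to 4 held 4 of the 7 Hox genes whose mean lay above the Tag level in both groups. The gene hoxb3a, expressed in the posterior hindbrain, was at 10.61 and 9.98 in SU5402 arrays, against 10.21 and 9.79 in DMSO arrays, a difference of 0.30 (SE 0.37, limma adjusted p = 0.8). The gene hoxd4a, of the same part of the hindbrain, was at 9.49 and 10.58 in SU5402 arrays, against 9.44 and 10.07 in DMSO arrays, a difference of 0.27 (SE 0.47, limma adjusted p = 0.862). In both genes the groups overlapped. Replicate 1 was the higher array of each group for hoxb3a, and replicate 2 for hoxd4a. The difference was -0.02 for hoxb3a without SU5402 replicate 1 and -0.27 for hoxd4a without SU5402 replicate 2. The hindbrain gene hoxb2a and the hoxca gene hoxc3a, also above the Tag level in both groups, were at -0.04 (SE 0.45) and -0.12 (SE 0.34).

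One gene of this range was higher with groups that did not overlap at 2-fold. The gene hoxc4a was at 7.50 and 6.85 in SU5402 arrays, against 6.34 and 5.46 in DMSO arrays, a difference of 1.28 (SE 0.44, limma adjusted p = 0.326). Its mean was below the Tag level in both groups, and SU5402 replicate 1 alone exceeded it. The difference was 0.84 without DMSO replicate 2 and 0.95 without SU5402 replicate 1, neither with an unadjusted limma p under 0.05. The 3 genes of group 1, which include the rhombomere 4 gene hoxb1a, had differences from -0.29 to 0.15, and all lay below the Tag level in both groups.

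For 13 genes more than 1 probe set was present, and for 7 of them the probe sets differed in sign. Over all 59 Hox probe sets, 12 were lower and 1 was higher at an unadjusted limma p under 0.05, against 6.21% and 6.74% of all probe sets. Besides hoxc8a, single probe sets also carried other differences. For hoxb8a the other probe sets were at -0.32 and -0.67, for hoxc11a at -0.07 and 0.37, for hoxb9a at -0.30 and for hoxa10b at -0.17, and these too were below the Tag level on all arrays. The reverse was seen for hoxb8b, where a dimmer probe set was at -1.18, and for hoxb10a, where one was at -1.38. With the probe sets of each gene averaged, hoxc8a was at -0.78 and hoxb8a at -1.13. The genes hoxc13a, hoxd10a, hoxd11a, hoxa13b and hoxa2b had a single probe set each, so their values have no such check. Probe sequences were not used here, and whether a probe set also reads a closely related Hox transcript was not tested.

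**Figure D4:**
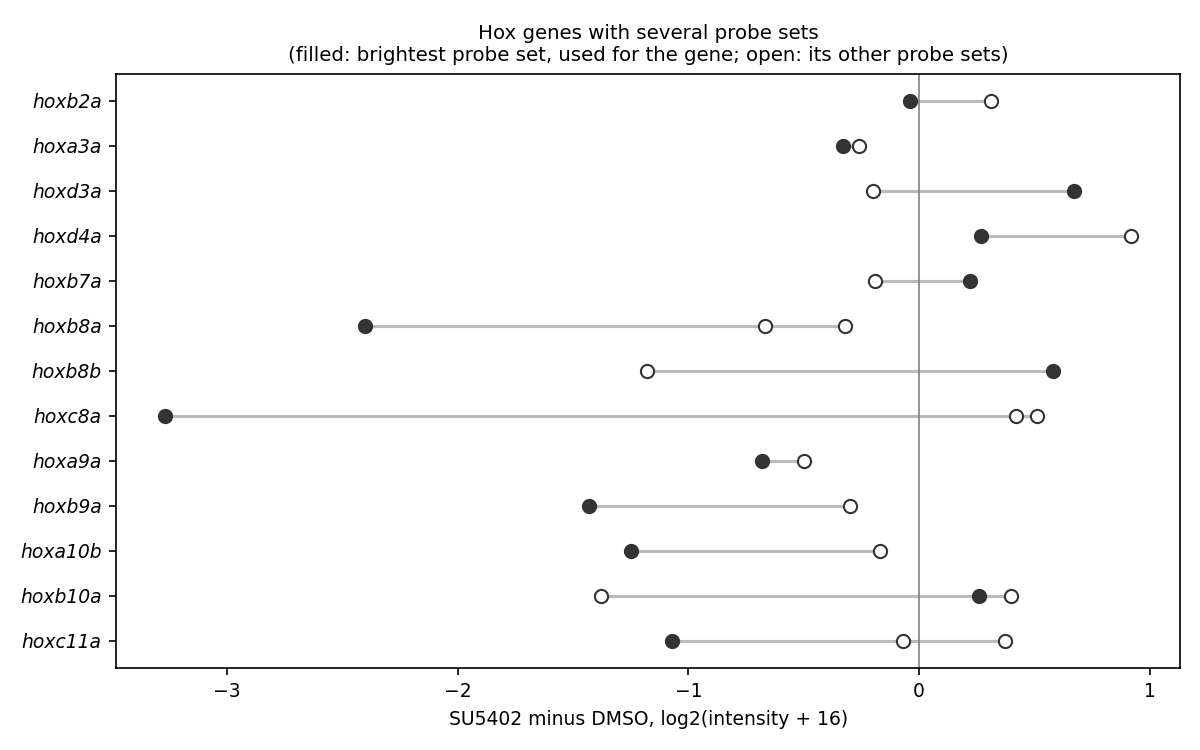
Difference between SU5402 and DMSO arrays in log2(intensity + 16) for every probe set of the 13 Hox genes with several, by gene in order of paralog group; filled points are the brightest probe set, used for the gene, and open points its other probe sets. The probe sets of hoxc8a spread from -3.27 to 0.51 and those of hoxb8a from -2.40 to -0.32.

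Hox proteins bind DNA together with TALE homeodomain partners of the Pbx, Meis and Pknox families. Of 12 measured cofactor genes, 4 were higher and 1 was lower at an unadjusted limma p under 0.05, against 5.31% and 8.04% of all genes, with a list median of 0.24. The gene meis2b was at 12.02 and 11.05 in SU5402 arrays, against 10.03 and 9.82 in DMSO arrays (1.61, SE 0.41, limma adjusted p = 0.261). The genes pbx1a, pbx3b and meis2a were at 1.26, 1.16 and 1.15, with non-overlapping groups, and pknox1.2 was at -0.96. Of 8 measured genes listed as possible regulators of Hox expression, among them 2 cdx genes, 1 was higher (5.31% of all genes), the midbrain-hindbrain boundary gene gbx2 at 1.24 (SE 0.46, limma adjusted p = 0.352), and 0 were lower (8.04% of all genes). Below the Tag level in both groups lay 6 of the 8, among them both of these cdx genes, which act on trunk Hox expression.

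In the retinoic acid list, 3 of 16 measured genes were lower at an unadjusted limma p under 0.05 (8.04% of all genes) and 0 were higher, with a list median of 0.16. These were the binding protein genes crabp2a at -3.48 (SE 0.57) and crabp2b at -1.72 (SE 0.38) and the receptor gene rarga at -1.01 (SE 0.30). Polycomb products keep Hox genes silent and Trithorax products keep them active. In the list made for them, 12 genes were measured, all Polycomb genes except the histone demethylase gene kdm6ba. The Trithorax gene kmt2a was counted among the possible regulators above. Of the 12, 0 were lower (8.04% of all genes) and 0 higher (5.31% of all genes) at an unadjusted limma p under 0.05, and the median was -0.20. No member of these 4 lists passed limma at an adjusted p under 0.05.

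Markers of other tissue differed between the groups as well. Of 17 measured pectoral fin genes, 8 were lower at an unadjusted limma p under 0.05 (8.04% of all genes) and 0 were higher (5.31% of all genes). Their median was -0.82, and 5 lay below the Tag level in both groups, among them the defining genes tbx5a and fgf24. Their summed intensity was 10885 and 14117 in SU5402 arrays, against 40141 and 64008 in DMSO arrays. This sum, like those of the lists below, follows its brightest genes, which in DMSO arrays were and1, and2 and and3. Of the 17 genes, 15 had a negative difference and 2 a positive one. The positive ones were shha at 0.34 and meis3 at 0.31, both with overlapping groups, while the bright gene hand2 was at -0.38. The fin mesenchyme genes prrx1b and tbx15 were at -4.42 (SE 0.45) and -4.31 (SE 0.61). The fin fold gene and2 was at 7.11 and 10.31 in SU5402 arrays, against 13.56 and 14.09 in DMSO arrays. In and2, SU5402 replicate 1 was the lowest of the 4 arrays and DMSO replicate 2 the highest. Among the 13 Hox genes lower at 2-fold without overlap, this also held in hoxa9b, hoxa11b, hoxc8a, hoxc13a, hoxd10a and hoxd11a. It did not hold in hoxa2b, hoxa10b, hoxa13b, hoxb8a, hoxb9a, hoxc11a or hoxd9a. These 13 were chosen with both SU5402 arrays below both DMSO arrays, so part of this order was fixed by the choice. How often it holds among all genes so chosen was not counted, so no conclusion is drawn from it. Relative to each gene's mean, the median of Hox groups 9 to 13 was -0.73 and -0.26 in SU5402 replicates 1 and 2, against 0.08 and 0.84 in DMSO replicates 1 and 2. The pectoral fin median was -0.78 and -0.38 in the same SU5402 arrays, against 0.40 and 1.17 in the DMSO arrays. Both run in the same order over the 4 arrays. The heart muscle list (0.82, 0.64, -0.23 and -0.99) and the neuron list (0.94, 0.11, -0.40 and -0.59), described below, run in the reverse order. SU5402 replicate 1 and DMSO replicate 2 were also the least correlated arrays over all probe sets (r = 0.908). Whether the order is particular to fin genes was not tested, nor was the part of the fin in the Hox values.

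The neuron list ran the other way, with 6 of 12 genes higher and 0 lower at an unadjusted limma p under 0.05 and 0 below the Tag level in both groups. Most of its measured genes are general to neurons, so it does not place them in hindbrain or spinal cord. Of all genes, 5.31% were higher and 8.04% lower at that p, and the counts of the lists that follow stand against the same shares. Its summed intensity was 62624 and 41504 in SU5402 arrays, against 32063 and 25289 in DMSO arrays. Of 10 heart muscle genes 8 were higher and 0 lower, with a sum of 44759 and 36269 in SU5402 arrays, against 18854 and 8164 in DMSO arrays, and gata4, nkx2.5 and tbx5a below the Tag level. Of 8 trunk muscle genes 3 were lower and 1 was higher, with sums of 527 and 860 in SU5402, against 760 and 2319 in DMSO arrays, and 5 below the Tag level in both groups, myod1 and myf5 among them. Of 16 pharyngeal arch and neural crest genes 3 were lower and 2 higher, with sums of 16613 and 16863 in SU5402, against 17400 and 19585 in DMSO arrays, and nkx3-2, sox9a and twist1a below the Tag level. Of 5 endothelial genes 2 were lower and 0 higher, of 10 genes of pharyngeal endoderm and gut 0 were lower and 1 higher, and of 5 pronephros and 4 blood genes 0 differed either way at that p. The fin list shares tbx5a with the heart muscle list and dlx2a and hand2 with the pharyngeal arch list. It also shares meis3 with the Hox cofactor list and fgf8a with the list of possible Hox regulators. The part of these tissues in the Hox values was not tested.

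**Figure D5:**
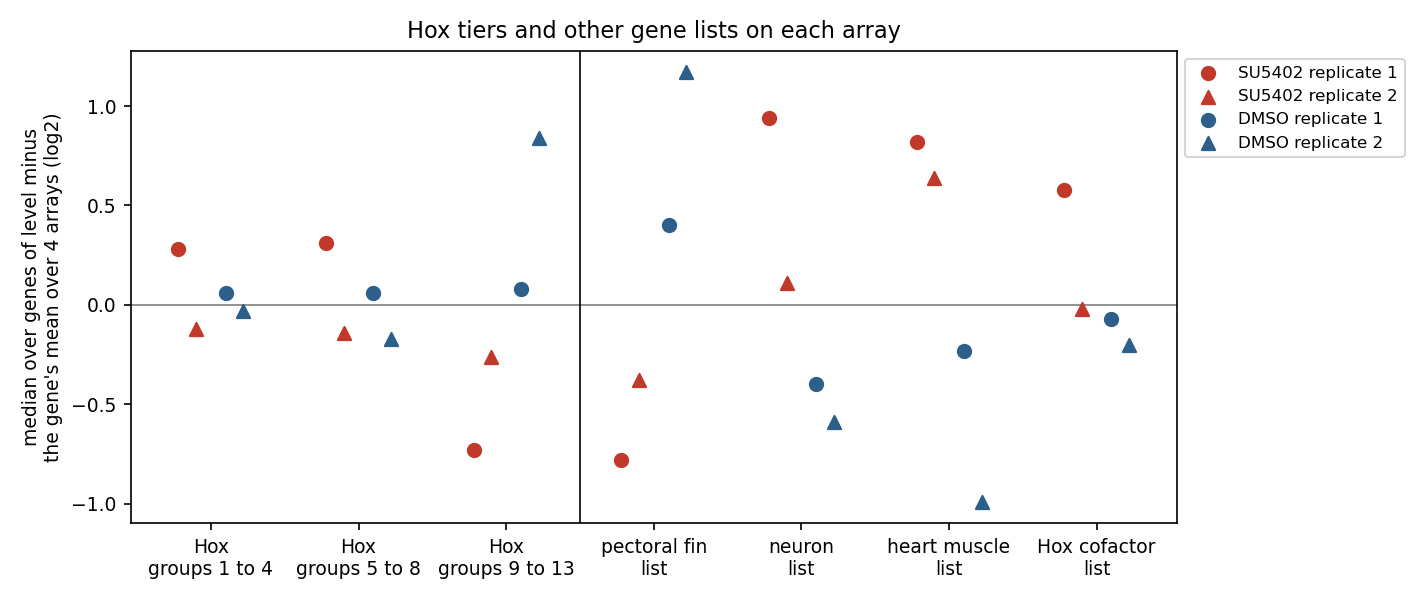
Median over genes of each gene's level minus its mean over the 4 arrays (log2), for Hox paralog groups 1 to 4, 5 to 8 and 9 to 13 (left of the line) and 4 gene lists (right of it); red are SU5402 arrays, blue DMSO arrays, circles replicate 1 and triangles replicate 2. In Hox groups 9 to 13 and the pectoral fin list both SU5402 arrays lie below both DMSO arrays, in the neuron, heart muscle and Hox cofactor lists both lie above, and in Hox groups 1 to 4 and 5 to 8 the arrays overlap.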

How the data were processed

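Total RNA was labelled with biotin, per the labels. The deposited table gives a linear intensity for each probe set in each array. The sources used here name neither the software nor the algorithm that summarised the probes. Trimmed means (2% at each end) were equal on all arrays while medians differed, so the authors' values look scaled and not quantile normalised. Arrays have no sequencing depth, and their number limits the precision. All 4 columns belonged to the 4 samples, and 0 others were present. Groups and replicate numbers came from the sample titles.

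Values were taken to log2(value + 16) and fitted with limma 3.58.1 (R 4.3.3, lmFit and eBayes) with treatment as the single term, two-sided, Benjamini-Hochberg adjusted over 15502 probe sets, with 115 control probe sets left out. Of these, 10795 had 1 symbol (10711 updated through Entrez identifiers in RefSeq GRCz12tu), 135 several and 4572 none. The fit was also run on simulated arrays with independent noise and no background floor. That run therefore says nothing about dim genes or genes that vary together. Per-array values are given for members with an unadjusted p under 0.05 or non-overlapping groups at least 2-fold apart that lay above the Tag level in at least 1 group, filled to 12 with the brightest others. A fold is given as "at least" where every SU5402 array was below the Tag level, and is the DMSO mean over that level. For hoxa10b, hoxb9a and hoxd11a that mean includes a DMSO array which was itself below the Tag level, so their bound is not a firm minimum. Members, lists and tests were chosen with earlier results of these data known. Other gene lists are described by counts and medians without a test of the list.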

Additional observations from a re-analysis of the deposited data

How the results depend on the processing

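Over all 42 Hox genes, 556 gene values were recomputed under 15 alternatives. Genes that a filter took out are not among these values (25 were left without the dimmest 25% of probe sets and 6 without the dimmest 50%). Nor are the 21 that stood at the Tag level on all arrays once values were raised to it. The gene hoxd9a dropped out in each of these ways, and this is not counted as a lost p. With all arrays in, 358 kept their direction and their side of an unadjusted limma p of 0.05, 18 lost and 5 gained that p, and 7 changed sign. With 1 array left out 123 kept both, 14 lost it, 9 gained it and 22 changed sign. The number passing an adjusted p under 0.05 was 0 under every alternative. Causes of the shifts below were not tested, except that filters and the floor take out dim genes.

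The replicate numbers do not pair the arrays by any label, and the difference between replicates 1 and 2 correlated at r = 0.276 across probe sets between the groups. With a replicate block, 11 genes of groups 9 to 13 were lower at an unadjusted limma p under 0.05, against 7 without it. The median over all Hox genes, -0.24, was -0.27 after quantile normalisation, -0.19 after median centring, -0.29 after cyclic loess, -0.34 and -0.12 with pseudocounts of 1 and 64, and -0.28 without the dimmest 25% of probe sets. The count of genes higher at 2-fold was 3 with median centring, 3 with a pseudocount of 1 and 0 with 64. With 64, 8 were lower at 2-fold, 5 of them in groups 9 to 13, whose median was -0.57.

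Without the dimmest 50% of probe sets only 6 Hox genes were left, 2 lower and 0 higher by each count, 1 of them in groups 9 to 13. Medians there were 0.12 for all Hox genes and 0.27 for groups 1 to 4 (hoxb2a, hoxb3a and hoxd4a). The value of -1.44 for groups 5 to 8 lies midway between hoxb5a at 0.38 and hoxc8a at -3.27. That of groups 9 to 13, -1.71, is hoxc13a alone. So few genes do not describe these groups. With values raised to the Tag level, 21 of 42 genes stood at it on all arrays. At an unadjusted limma p under 0.05, 2 were then lower (hoxc8a and hoxc13a) and 1 higher (hoxb5a). At 2-fold 3 were lower and 0 higher. In groups 9 to 13, 1 gene (hoxc13a) was lower by each count. The medians were 0 for all Hox genes and for groups 9 to 13. At this floor hoxd11a (-0.99), hoxa13b (-0.14) and hoxc4a (0.13) all had an unadjusted limma p of 0.379. Each exceeded the Tag level on 1 array alone, so that p does not follow the size of the difference. Their losses are among the 18 above. For hoxb5a the difference stayed at 0.38, while its unadjusted limma p went from 0.248 to 0.0143. With the probe sets of a gene averaged, 6 were lower at an unadjusted limma p under 0.05, 4 of them in groups 9 to 13.

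With each array left out in turn, the count lower at that p ran from 7 to 10 and higher from 0 to 4. At 2-fold the counts ran from 10 to 15 lower and 0 to 4 higher. In groups 9 to 13 they ran from 4 to 8 at that p and 7 to 12 at 2-fold. The median ran from -0.33 to -0.15 for all Hox genes, -0.09 to 0.20 for groups 1 to 4, 0.05 to 0.45 for groups 5 to 8 and -1.39 to -0.73 for groups 9 to 13.

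Signs turned in small differences. The gene hoxb2a was at 0.02 after quantile normalisation, 0.01 after median centring and 0.14 with probe sets averaged, where hoxb10a was at -0.24 and hoxb8b at -0.30. With 1 array left out, hoxa11a ran from -0.35 to 0.62, hoxb2a from -0.55 to 0.46, hoxb3a from -0.02 to 0.61, hoxc3a from -0.40 to 0.16, hoxc11b from -1.03 to 0.27, hoxc12b from -0.88 to 0.06, hoxd4a from -0.27 to 0.82 and hoxd13a from -1.79 to 0.02.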
